A study of Homo sapiens with 2 samples.

Results

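The genes examined here encode the cytosolic factors that start and carry out protein synthesis: the eukaryotic initiation factors (EIF genes) and elongation factors (EEF genes). They were taken by name as the protein-coding genes whose symbol begins with EIF or EEF and a digit, and the subunits (EIF2S) and kinases (EIF2AK) of eIF2 were left out. This gave 58 genes of the 44591 in the table. Of these, 1 is Y-linked and is counted without a level, and 56 of the other 57 had at least 10 reads summed over both libraries. EIF4E1B, a germline form of the cap-binding protein, had 0 reads in both libraries, which allows a share of up to 1.59e-05% of the siNC reads and 1.95e-05% of the siLINP1 reads (3 reads of each total).

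The comparison asks which mRNAs differ when the long noncoding RNA LINP1 is knocked down. Both libraries came from total RNA of HSC-1, a cell line of cutaneous squamous cell carcinoma (cSCC), and 1 library was made for each condition: siNC, a control siRNA, and siLINP1, an siRNA against LINP1. In both conditions the cells were transfected at about 70% confluency, kept for 6 h without serum and then for 24 h with 10% serum. There is no replicate check of any difference below, no p-value was computed, and each 95% interval of a gene covers the counting error of its reads only, which are not independent molecules, since no source names molecular identifiers. An interval after a median is the 95% distribution-free interval of that median over the genes of the list. It treats the genes as independent and holds no spread between cultures.

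Most mRNAs are translated by a scanning mechanism. eIF4E binds the cap, eIF4G joins it to the helicase eIF4A and to the large scaffold eIF3 on the small ribosomal subunit, eIF2 brings the initiator tRNA, and eIF1, eIF1A and eIF5 govern the choice of the start codon. eEF1A then delivers each further aminoacyl-tRNA and eEF2 moves the ribosome along, while phosphorylation of eIF2, which blocks its recycling by eIF2B, and the binding of eIF4E by the 4E-BP proteins are the classical brakes in stressed or starved cells.

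The siNC library held 18829544 reads on genes and the siLINP1 library 15383081. LINP1 itself had 167 reads in siNC and 23 in siLINP1, a log2 fold change of -2.65 (-3.35 to -2.02). Of 10 squamous keratinocyte markers, 4 (KRT5, TP63, DSG3 and CDH1) were under 1 RPKM (reads scaled to gene length and library size) in both libraries. The summed level of the list was 77.4 RPKM in siNC and 59.6 RPKM in siLINP1, of which ITGB4 alone gave 51.4 and 41.6 RPKM. Log2 fold changes within the list went both ways, as with -1.27 for KRT14 and 0.75 for KRT6A. All 5 mesenchymal markers were above 1 RPKM in siNC, with VIM at 1519 RPKM in siNC and 1278 RPKM in siLINP1, and their summed level was 2055 RPKM in siNC and 1682 RPKM in siLINP1. The part of these shifts in the values below was not tested, and in bulk RNA fewer cells of a type and less RNA per cell cannot be told apart.

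Translation factors were a heavily read group. The 56 genes held 442238 reads in siNC, or 2.35% of the library (Clopper-Pearson interval 2.34% to 2.36%), and 331932 reads in siLINP1, or 2.16% (2.15% to 2.17%). EEF1A1, which encodes the main form of eEF1A, was the gene with most reads of the whole table in both libraries, with 149264 reads (0.793% of the library) in siNC and 103592 reads (0.673%) in siLINP1. It alone made up 33.8% of the reads of the group in siNC and 31.2% in siLINP1. The group, and EEF1A1 within it, thus took a smaller share of the siLINP1 library. This holds for the sum and not for every member: scaled by total reads, 28 of the 56 genes were higher in siLINP1 and 28 lower.

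Per length of gene, 6 members stood above all others in siNC. EEF1A1 was at 2257 RPKM in siNC and 1917 RPKM in siLINP1, and EEF1G, the structural subunit of the exchange factor that reloads eEF1A, was at 1363 and 1150 RPKM. EIF4A1, the main cap-complex helicase, was at 667 RPKM in siNC and 757 RPKM in siLINP1. EEF2 was at 593 and 552 RPKM, EIF5A, which relieves stalled ribosomes, at 406 and 365 RPKM, and EIF1, the start codon gatekeeper, at 399 and 426 RPKM. EIF4E itself was at only 2.86 RPKM in siNC and 3.34 RPKM in siLINP1, below its repressor EIF4EBP1 at 166 and 159 RPKM. The gene length used was 12096 bases for EIF4E and 859 for EIF4EBP1, so much of this gap comes from the length. In reads, EIF4E had 651 and EIF4EBP1 2685 in siNC. Of the genes with reads, EIF5AL1, EIF4E3, EIF5A2 and EIF3CL were lower than EIF4E in RPKM. The order of the first 4 genes was the same in both libraries, while EIF1 was below EIF5A in siNC and above it in siLINP1.

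Log2 fold changes are given as siLINP1 over siNC after scaling by median-of-ratios size factors. RPKM values are scaled by the total reads instead, so a ratio of RPKM values lies above the fold change by 0.08 on the log2 scale for every gene. A fold of 1.5, the fold limit of the study, marks a gene as higher or lower. The study also set a limit on the p-value, which was not applied here.

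Most translation factors differed little between the libraries. In siLINP1, 25 of the 56 were higher and 31 lower, and the median log2 fold change was -0.08 (-0.15 to 0.05), against -0.02 over all 19840 genes with at least 10 reads. Only 1 member (EIF5) was higher by more than 1.5-fold, against 14.4% of all genes, and 3 members (EIF4H, EIF4E3 and EEF1AKMT1) were lower by more than 1.5-fold, against 13% of all genes. Since translation factors are read deeply, genes with at least 1000 reads are the nearer background. Among the 47 members of that depth, 1 was higher by more than 1.5-fold (5.47% of all 7071 such genes), and 1 was lower (3.56% of such genes). The counting interval lay above 0 for 12 of the 47 (25.5%, against 31.7% of such genes) and below 0 for 24 (51.1%, against 40.7%). This split depends on the scaling: with scaling by total reads (CPM) the interval lay above 0 for 20 of the 47 and below 0 for 18, against 40.9% and 30.9% of all such genes, and the median of the 56 was 0.0006.

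**Figure D1:**
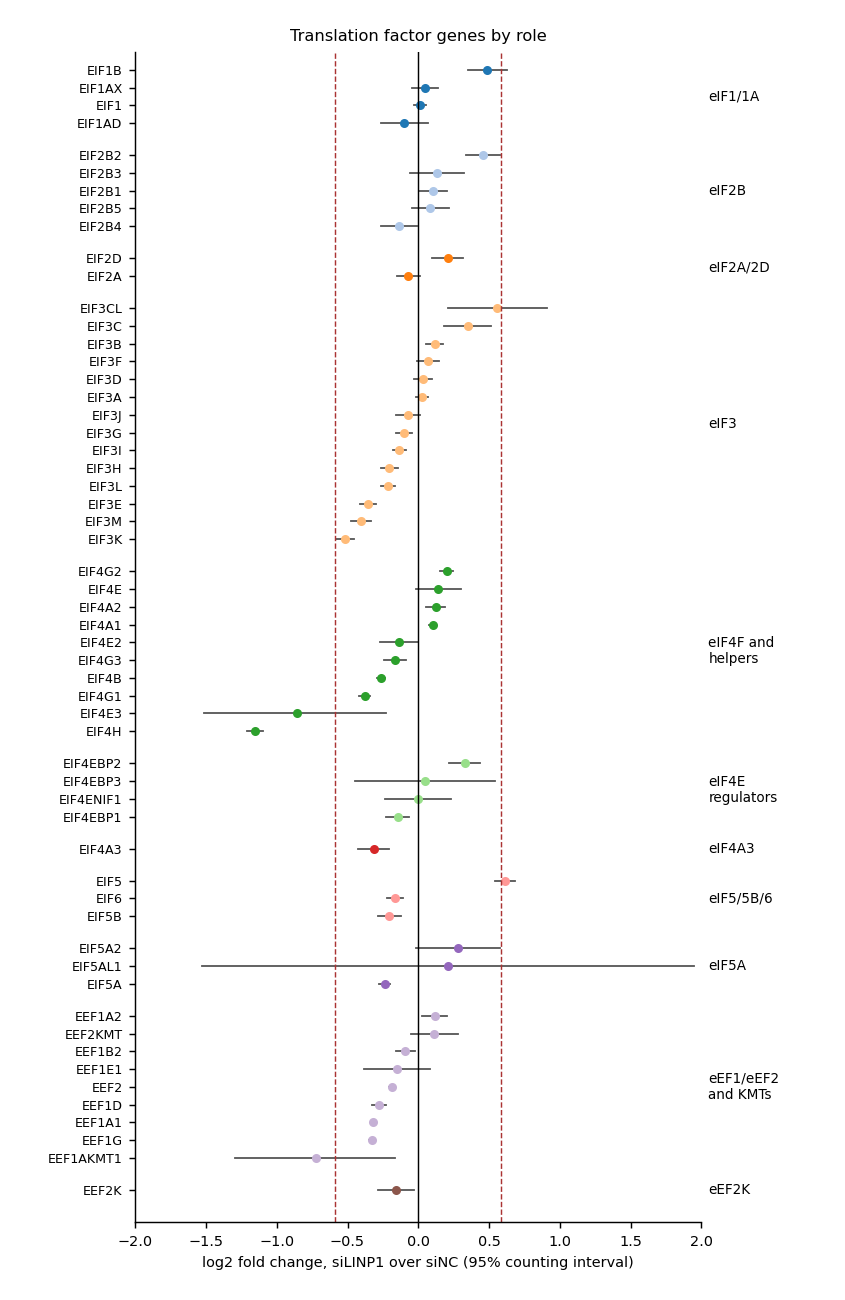
Each point is the log2 fold change of a translation factor gene, siLINP1 over siNC (1 library each), with its 95% counting interval as a line, grouped by role. The dashed lines mark 1.5-fold, and only EIF4H, EIF4E3 and EEF1AKMT1 lie left of them and only EIF5 right of them.

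**Figure D2:**
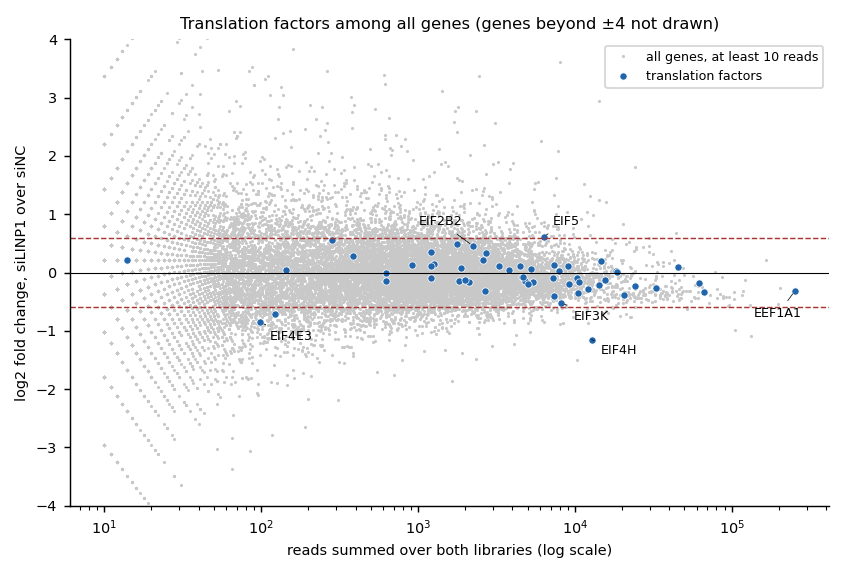
The horizontal axis is the reads summed over both libraries (log scale) and the vertical axis the log2 fold change, siLINP1 over siNC. Grey points are genes with reads in both libraries, blue points the 56 translation factors, and 27 genes beyond 4 in size are not drawn. EIF4H stands apart below the other deeply read factors, and EEF1A1 is the rightmost point.

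The cap-binding complex and its helicase hold the member that differed most. EIF4H encodes a small RNA-binding protein that, like eIF4B, stimulates unwinding by eIF4A. The gene lies on the plus strand of GRCh37 at chr7:73588706-73611429. It had 9224 reads in siNC against 3589 in siLINP1, or 192 and 91.6 RPKM. The log2 fold change was -1.15 (-1.21 to -1.10), which is 2.22-fold lower. EIF4H ranked 9 from the lowest of the 7071 genes with at least 1000 reads, and 0.269% of those genes were lower by more than 2-fold. In the table, no gene on the opposite strand overlapped EIF4H, and its 2 pseudogenes held 42 reads in siNC and 32 in siLINP1.

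EIF4B, which acts with the same helicase, had 19169 reads in siNC and 13812 in siLINP1, a log2 fold change of -0.26 (-0.30 to -0.23). The ratio of EIF4H to EIF4B reads, which needs no scaling of the libraries, was 0.481 in siNC and 0.260 in siLINP1. The log2 ratio of these ratios was -0.89 (-0.95 to -0.82), so EIF4H was lower also relative to its partner. The helicase genes did not share this. EIF4A1 had 23585 and 21871 reads, for a log2 fold change of 0.10 (0.07 to 0.13), and EIF4A2, its near-identical paralog, had 3821 and 3596 reads, for a log2 fold change of 0.12 (0.06 to 0.19). The ratio of EIF4A2 to EIF4A1 differed by 0.02 (-0.05 to 0.09) on the log2 scale. EIF4A1 is also covered by the annotated readthrough gene SENP3-EIF4A1, which was counted at 25472 and 23302 reads, close to the sum of SENP3 (2165 and 1607 reads) and EIF4A1, so reads of overlapping genes may stand in more than 1 row of the table.

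Of the scaffold genes, EIF4G1 encodes the principal eIF4G. It had 12396 reads in siNC and 8250 in siLINP1, a log2 fold change of -0.38 (-0.42 to -0.34). EIF4G3, its paralog, had 3060 and 2365 reads, for a log2 fold change of -0.16 (-0.24 to -0.08). EIF4G2 encodes a form that lacks the eIF4E-binding region and serves cap-independent initiation, and it was on the other side, with 7310 and 7270 reads, for a log2 fold change of 0.20 (0.15 to 0.25). The intervals of EIF4G1 and EIF4G2 do not overlap, and EIF4G3 relative to EIF4G1 was higher in siLINP1 by 0.22 (0.13 to 0.30) on the log2 scale.

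The cap-binding proteins were read less deeply. EIF4E had 651 reads in siNC and 621 in siLINP1, a log2 fold change of 0.14 (-0.02 to 0.30). EIF4E2, a homolog that represses translation of the mRNAs it binds, had 1020 and 802 reads, for a log2 fold change of -0.14 (-0.27 to -0.003). EIF4E3, an atypical homolog, had only 67 and 32 reads, for a log2 fold change of -0.86 (-1.51 to -0.23), an interval that takes in folds well under 1.5. EIF4E2 relative to EIF4E was lower by 0.28 on the log2 scale (-0.49 to -0.07). Across the 10 genes with reads in the cap-binding and helicase group, 4 were higher and 6 lower, with a median log2 fold change of -0.15.

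The siRNAs are shown because a guide strand can also pair, through bases 2 to 8 (its seed), with sites in the 3′UTR of other mRNAs. The study lists 2 siRNAs against LINP1, and which of them was used for the sequenced library is not given in the sources used here. Each target sequence is printed with the bases opposite the seed in capitals, and each guide, its reverse complement, with the seed in capitals.
siLINP1_01 target: ccaactgcgggACTTCAGa
siLINP1_01 guide: tCTGAAGTcccgcagttgg
siLINP1_02 target: cactctccagcCTGCAAGa
siLINP1_02 guide: tCTTGCAGgctggagagtg
EIF4H 3′UTR, GRCh37 chr7:73611167-73611196, plus strand: accaacacttaACTTCAGaaagacatgcat
The capitals in the EIF4H line mark the 7 bases that pair with the siLINP1_01 seed, at 73611178 to 73611184 in the annotated 3′UTR.

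Seed sites were not frequent among translation factors. For siLINP1_01, 5 of the 56 genes (8.93%) had a site (EEF1A1, EEF2K, EIF2B3, EIF3F and EIF4H), against 16.6% of the well-read genes with an annotated 3′UTR. The log2 fold changes of the other 4 were -0.32 for EEF1A1, -0.16 for EEF2K, 0.07 for EIF3F, which has 2 sites, and 0.13 for EIF2B3. For siLINP1_02, 4 genes (7.14%) had a site (EIF1AX, EIF2B1, EIF3L and EIF4EBP2), against 13.7% of well-read genes. Their log2 fold changes ran from -0.21 for EIF3L to 0.33 for EIF4EBP2. The sites of EIF3F, EIF2B1 and EIF3L lie in the annotated 3′UTR but past the end of the gene as counted here. Whether the mRNAs of these cells reach those sites is not known from these counts. Among carriers of the siLINP1_01 site, the intervals of EIF3F (-0.01 to 0.15) and EIF2B3 (-0.06 to 0.32) spanned 0. Those of EEF1A1, EEF2K and EIF4H lay below 0, as did those of 40.7% of well-read genes. The median was -0.16 for the 5 members with that site and -0.07 for the members without it, and over all well-read genes it was -0.02 with a site and -0.04 without. The part of pairing with an siRNA in the EIF4H value was not tested.

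Among the regulators of eIF4E, the pair of main 4E-BP genes parted. EIF4EBP1, the inhibitor released by mTOR signalling, had 2685 reads in siNC and 2100 in siLINP1, a log2 fold change of -0.15 (-0.23 to -0.06). EIF4EBP2 had 1293 and 1405 reads, for a log2 fold change of 0.33 (0.22 to 0.44). EIF4EBP2 relative to EIF4EBP1 was therefore higher in siLINP1 by 0.47 (0.34 to 0.61) on the log2 scale, although per length EIF4EBP1 remained the more abundant by 18.2 times in siNC and 13.1 times in siLINP1. EIF4EBP3 had 76 and 68 reads and shares its last part with the readthrough gene ANKHD1-EIF4EBP3, and EIF4ENIF1, which carries eIF4E into the nucleus, had 336 and 290 reads. The intervals of both genes spanned 0. EIF4A3, a helicase of the exon junction complex that marks spliced mRNA, had 1577 and 1096 reads, for a log2 fold change of -0.32 (-0.43 to -0.20).

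Start codon selection holds the well-read factor with the highest log2 fold change. EIF5 encodes the activator of GTP hydrolysis by eIF2, and it lies on the plus strand of GRCh37 at chr14:103800339-103811362. It had 2719 reads in siNC and 3595 in siLINP1, or 23.0 and 37.3 RPKM. The log2 fold change was 0.61 (0.54 to 0.68), which is 1.53-fold and ranked 345 from the highest of the 7071 well-read genes. The interval takes in 1.5-fold, a log2 value of 0.585. EIF5B and EIF6 of the same role group, which join the ribosomal subunits and hold them apart, were on the other side, with log2 fold changes of -0.20 (-0.29 to -0.12) from 2869 and 2153 reads and of -0.16 (-0.22 to -0.11) from 6014 and 4645 reads.

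EIF1 and its near copy EIF1B differed from each other. EIF1 had 9950 reads in siNC and 8686 in siLINP1, a log2 fold change of 0.01 (-0.03 to 0.05). EIF1B had 802 and 972 reads, for a log2 fold change of 0.49 (0.35 to 0.62), and relative to EIF1 it was higher by 0.47 (0.33 to 0.62). EIF1AX, the scanning factor eIF1A, had 2006 and 1791 reads, for a log2 fold change of 0.05 (-0.05 to 0.14), and EIF1AD, which holds an eIF1A-like domain, had 669 and 540 reads, for a log2 fold change of -0.10 (-0.27 to 0.07). EIF1AD overlaps BANF1 on the opposite strand, which had 2881 and 1876 reads, and whether counting used the strand is not given in the sources used here.

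The exchange factor eIF2B, which reactivates eIF2 and is the target of eIF2 phosphorylation, has 5 subunits. Of these, 4 were higher and 1 lower in siLINP1, none by more than 1.5-fold, with a median log2 fold change of 0.11. EIF2B2 (the beta subunit) stood out, with 1025 reads in siNC and 1217 in siLINP1, a log2 fold change of 0.46 (0.34 to 0.58). EIF2B1 had 1696 and 1578 reads, for a log2 fold change of 0.11 (0.01 to 0.20), and EIF2B4 had 1120 and 882 reads, for a log2 fold change of -0.14 (-0.26 to -0.01). EIF2B3 and EIF2B5, the latter the catalytic subunit, had log2 fold changes of 0.13 and 0.09, with intervals that spanned 0. EIF2B4, the only lower subunit, had an upper bound of -0.007. Its interval spans 0 under every other scaling tried, each of which adds 0.02 or more.

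The genes of eIF2 itself and of its kinases were left out of the group. EIF2S1, EIF2S2 and EIF2S3, the alpha, beta and gamma subunits, had log2 fold changes of -0.10, -0.13 and -0.05. Of the 4 kinases, EIF2AK3, which encodes PERK, had 227 and 274 reads, for a log2 fold change of 0.48 (0.22 to 0.74), and EIF2AK1, EIF2AK2 and EIF2AK4 lay between -0.18 and 0.01. EIF2A and EIF2D, which can bring tRNA to the ribosome without eIF2, had log2 fold changes of -0.07 (-0.15 to 0.02) and 0.21 (0.10 to 0.32).

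The eIF3 scaffold is read from 14 genes, of which 6 were higher and 8 lower in siLINP1, none by more than 1.5-fold. The median log2 fold change was -0.08, and the values spread from -0.52 to 0.56. The counting interval lay above 0 for 3 genes, below 0 for 7 and across 0 for 4, where 31.7% of well-read genes lay above and 40.7% below. The lowest was EIF3K, with 5088 reads in siNC and 3078 in siLINP1, a log2 fold change of -0.52 (-0.58 to -0.45). EIF3M had 4448 and 2907 reads, for a log2 fold change of -0.40 (-0.47 to -0.34), and EIF3E had 6202 and 4199 reads, for a log2 fold change of -0.35 (-0.41 to -0.30). EIF3L and EIF3H were at -0.21 (-0.26 to -0.16) and -0.20 (-0.26 to -0.14). These proteins belong to the octamer core of eIF3, as do those of EIF3A, EIF3C and EIF3F, whose log2 fold changes were 0.03, 0.35 and 0.07. The intervals of EIF3A and EIF3F spanned 0. That of EIF3C lay above 0, but its read count is uncertain because of its near-identical copy EIF3CL.

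EIF3A, the largest subunit, and EIF3B lay near or above 0. EIF3A had 9666 and 8526 reads, for a log2 fold change of 0.03 (-0.01 to 0.07), and EIF3B had 4651 and 4365 reads, for a log2 fold change of 0.12 (0.06 to 0.18). EIF3D, which has its own cap-binding activity, was at 0.03 (-0.03 to 0.10), EIF3F at 0.07 (-0.01 to 0.15) and EIF3J, the loosely attached subunit, at -0.07 (-0.16 to 0.01). EIF3G and EIF3I, partners of EIF3B, were at -0.10 (-0.16 to -0.04) and -0.13 (-0.18 to -0.09). EIF3C and EIF3CL are near-identical copies, so how reads are split between them is uncertain. They had 575 and 633 reads (EIF3C) and 124 and 158 reads (EIF3CL), and together a log2 fold change of 0.39 (0.24 to 0.54). Without this pair the other 12 genes had a median of -0.12 and held between 52.2 RPKM (EIF3J) and 303 RPKM (EIF3K) in siNC, while EIF3C was at only 8.72 RPKM. Whether reads that match both copies were counted is not given, so the level of EIF3C may be understated.

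**Figure D3:**
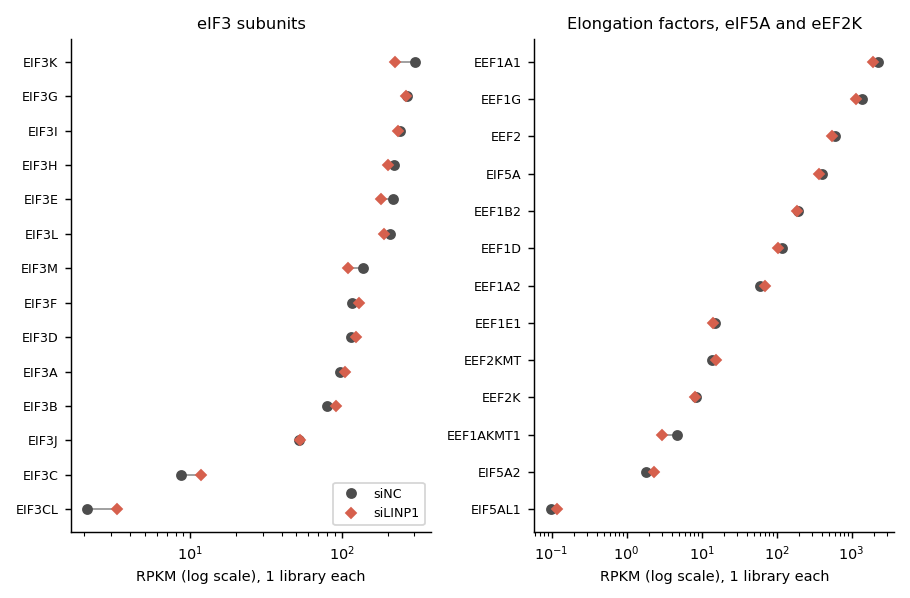
Levels in RPKM (log scale) of the eIF3 subunit genes (left) and of the elongation factors, eIF5A genes and EEF2K (right), with 1 library for each condition. Circles are siNC and diamonds siLINP1, and a line joins the values of a gene. EIF3K is the highest eIF3 gene in siNC at 303 RPKM and lies below EIF3G and EIF3I in siLINP1 at 224 RPKM.

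Elongation factors were mostly lower. Apart from the kinase, 9 EEF1 and EEF2 genes were read, 2 of them higher and 7 lower in siLINP1, with a median log2 fold change of -0.19. Of the 7071 well-read genes, 3889 were lower. The counting interval lay above 0 for 1 of the 9 and below 0 for 6, against 31.7% and 40.7% of well-read genes. Without the pair of methyltransferase genes, 1 was higher and 6 were lower, with the same median. EEF1A1 had a log2 fold change of -0.32 (-0.33 to -0.31). EEF1G had 39471 reads in siNC and 27210 in siLINP1, a log2 fold change of -0.33 (-0.35 to -0.31). EEF2 had 35265 and 26802 reads, for a log2 fold change of -0.19 (-0.21 to -0.16). These 3 genes, the most deeply read of all members, lay below 0 with narrow intervals.

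The other subunits of the eEF1A exchange factor were lower as well. EEF1D, with the nucleotide exchange activity, had 7038 and 5022 reads, for a log2 fold change of -0.28 (-0.33 to -0.22), and EEF1B2, the second exchange subunit, had 3990 and 3235 reads, for a log2 fold change of -0.09 (-0.16 to -0.03). EEF1A2, the form of eEF1A typical of muscle and neurons, had 2305 and 2159 reads, for a log2 fold change of 0.12 (0.03 to 0.20). Relative to EEF1A1 it was higher in siLINP1 by 0.43 (0.35 to 0.52), although EEF1A1 remained 27.4 times as abundant per length in siLINP1 (37.0 times in siNC). EEF1E1, a part of the tRNA synthetase complex, had 351 and 274 reads and an interval that spanned 0. Among the enzymes that modify elongation factors, EEF1AKMT1, a lysine methyltransferase of eEF1A, had 80 and 42 reads, for a log2 fold change of -0.72 (-1.29 to -0.16). EEF2KMT had 622 and 582 reads, for a log2 fold change of 0.11 (-0.05 to 0.28), and EEF2K, the kinase that inhibits eEF2, had 1186 and 919 reads, for a log2 fold change of -0.16 (-0.28 to -0.03).

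EIF5A carries hypusine, a modified lysine needed for its work on stalled ribosomes. It had 13914 reads in siNC and 10210 in siLINP1, a log2 fold change of -0.24 (-0.27 to -0.20). EIF5A2, its paralog, had 187 and 196 reads, for a log2 fold change of 0.28 (-0.02 to 0.57). EIF5AL1 is an intronless copy of EIF5A with 7 reads in each library, which could be reads of either gene.

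In 5 of the 8 pairs of paralogs or partners compared, the partner was higher relative to its gene in siLINP1 with an interval above 0. In these 5 pairs (EEF1A2, EIF1B, EIF4EBP2, EIF4G3 and EIF5A2, each over its paralog) the log2 ratio of ratios ran from 0.22 to 0.51. The partner was the less-read gene in each of these 5, and no share over other gene pairs was computed. EIF4H and EIF4E2 were lower relative to EIF4B and EIF4E, and EIF4A2 over EIF4A1 spanned 0.

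**Figure D4:**
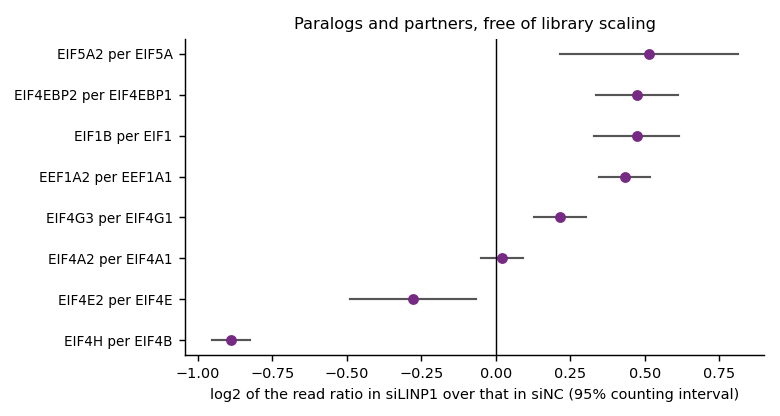
Each point is the log2 of the ratio of reads between a gene and its paralog or partner in siLINP1 over the same ratio in siNC, with its 95% counting interval, and 0 is an equal ratio in both libraries. EIF5A2, EIF4EBP2, EIF1B, EEF1A2 and EIF4G3 lie right of 0, and EIF4H per EIF4B lies far left at -0.89.

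Several elongation and initiation factors are encoded by TOP mRNAs, whose 5′ end is a run of pyrimidines through which mTOR signalling controls their translation, as for ribosomal protein mRNAs. A list of known TOP mRNAs was drawn up with earlier results of these data known, and it may leave out other members. It holds 9 members (EEF1A1, EEF1B2, EEF1D, EEF1G, EEF2, EIF3E, EIF3F, EIF3H and EIF4B). Of these 9, 8 had a counting interval below 0, against 40.7% of well-read genes, and EIF3F spanned 0. With scaling by CPM, 7 lay below 0 (30.9% of well-read genes) and EEF1B2 spanned 0, as it also did with factors from protein-coding genes, and EIF3F lay above 0 under CPM, TMM and protein-coding factors. The median log2 fold change of the 9 was -0.26 (-0.33 to -0.09), and that of the other 47 members was 0.01 (-0.14 to 0.11). Of 87 genes taken by name as ribosomal protein genes, 85 were lower, with a median of -0.38 (-0.41 to -0.35). That list holds 10 readthrough, paralog-like and binding-protein rows, and the other 77, whose mRNAs are textbook TOP mRNAs, were all lower with a median of -0.38 (-0.42 to -0.36). The cytosolic aminoacyl-tRNA synthetases, which supply the same machinery, lay on the other side, with 15 of 20 higher and a median of 0.18 (0.05 to 0.27). All well-read genes had a median of -0.04.

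**Figure D5:**
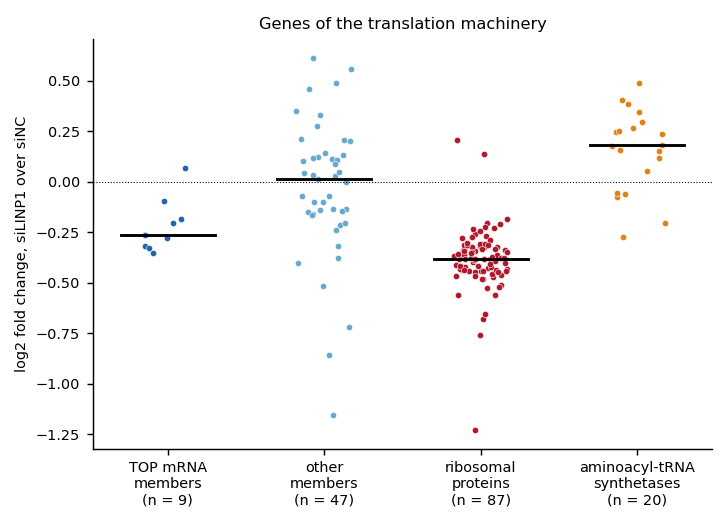
Each point is the log2 fold change of a gene, siLINP1 over siNC, and the black bar is the median of its list. TOP mRNA members have a median of -0.26, other members 0.01, ribosomal protein genes -0.38 and aminoacyl-tRNA synthetases 0.18, and the horizontal spread of points within a list has no meaning.

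The annotated start sites were searched for pyrimidine runs. RefSeq promoter windows (GRCh38.p14) matched 45 of the 56 members, and a run of at least 8 C or T within 5 bases of the first transcribed base, read on the strand of the gene, was found in 11 (24.4%), against 17% of well-read genes and 14.1% of all 27305 symbols. The windows below give 30 bases, the first transcribed base is the 16th, and the run is in capitals. They were chosen to show runs in genes with low values (EEF1A1, EEF2, EIF3K and EIF3M) and in genes near 0 (EIF3D and EIF3F).
EEF1A1, chr6:73521018-73521047, minus strand: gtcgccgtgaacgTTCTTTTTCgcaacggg
EEF2, chr19:3985449-3985478, minus strand: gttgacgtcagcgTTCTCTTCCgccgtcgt
EIF3K, chr19:38619173-38619202, plus strand: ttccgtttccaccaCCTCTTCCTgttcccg
EIF3M, chr11:32583816-32583845, plus strand: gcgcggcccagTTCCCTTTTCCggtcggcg
EIF3D, chr22:36529152-36529181, minus strand: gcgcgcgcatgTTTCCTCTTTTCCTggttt
EIF3F, chr11:7987322-7987351, plus strand: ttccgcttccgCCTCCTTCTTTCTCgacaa
The median log2 fold change was -0.16 for the 11 members with a run and 0.03 for the 34 without. The 11 include EIF4G3 (-0.16), whose run of 8 bases starts at -10 and ends before the first transcribed base. They also include EIF4H (-1.15), whose run starts only at transcribed base 5. These medians therefore do not compare mRNAs by a run at the 5′ end alone. Over all well-read genes these medians were -0.06 with a run and -0.03 without. The runs of EIF3D and EIF3F are longer than those of EEF1A1 and EIF3K, and these genes had log2 fold changes of 0.03 and 0.07. Of the 6 TOP mRNA members with a window, 4 had a run, and the windows of EEF1G and EIF4B, both lower in siLINP1, held none of that length.

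Around the members, 38 further genes of the pathway were read (eIF2 and its kinases, poly(A)-binding, helper, hypusine, termination, recycling and mitochondrial factors, among others). Their median log2 fold change was -0.09 (-0.18 to 0.09), with 15 higher and 23 lower, which is near the median of the members. By more than 1.5-fold, 2 of the 38 were higher and 1 was lower, against 14.4% and 13% of genes with at least 10 reads and 5.47% and 3.56% of those with at least 1000. MKNK2, a kinase of eIF4E, had 1561 and 2270 reads, for a log2 fold change of 0.75 (0.66 to 0.84). GSPT2, a form of the release factor eRF3, had 255 and 381 reads, for a log2 fold change of 0.79 (0.56 to 1.02). MCTS1, which works with DENR in reinitiation, had 759 and 421 reads, for a log2 fold change of -0.64 (-0.82 to -0.47). The median of the 6 termination and recycling genes was 0.21, and 5 of them had an interval above 0 (31.7% of well-read genes), while HBS1L was at 0.03 (-0.12 to 0.18). PABPC1, the poly(A)-binding partner of eIF4G and itself a TOP mRNA, had a log2 fold change of -0.34 (-0.36 to -0.32).

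Pseudogene copies of the members held few reads. The table holds 77 pseudogenes named after members, which had 2217 reads in siNC and 1593 in siLINP1 in all. Most of these were on EEF1A1P5, with 1432 and 923 reads, for a log2 fold change of -0.42 (-0.55 to -0.30), on the same side as EEF1A1.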

How the data were processed

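Transcriptomic sequencing of 1 siNC and 1 siLINP1 library of HSC-1 cells was analysed from the deposited gene table. According to the methods, the authors used Tophat2 for alignment to GRCh37/hg19 and HTSeq in calling differential expression. The submitters' processing notes name HISAT2, HISAT, TopHat2 and Bowtie2 as well. The versions, annotation, counting mode and strand setting are not given in the sources used here. The deposited counts are raw reads per gene. RPKM as deposited was the count over gene length and library total. Not used were 12 further columns of per-sample values.

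Size factors (median of ratios) were 1.08 for siNC and 0.930 for siLINP1. A gene needed at least 10 reads in the sum of the libraries, and log2 fold changes had no pseudocount. Intervals (95%) are the Clopper-Pearson interval of a gene's split of reads, the conditional exact interval of an odds ratio for pairs, and the distribution-free interval of a median. With 1 library per condition no test was made. The calculation was tested on simulated data. The members and gene lists were chosen with earlier results of these data known. Genes described in full were members past 1.5-fold, the 5 highest and 5 lowest with at least 100 reads, the 5 highest by RPKM, the paired members, and pathway genes past 1.5-fold. Other members are given within their role group, and the start site windows were chosen after their values were seen.

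Seed sites were searched in 3′UTRs of canonical GENCODE transcripts on GRCh37, and pyrimidine runs in RefSeq promoter windows of GRCh38.p14. Alternatives were CPM, TMM and protein-coding-only scaling, other read minimums, pseudocounts, folds and denominators. The tools were scipy 1.17.1, pandas 2.3.3, numpy 2.4.6 and matplotlib 3.10.9 under Python 3.11.15, and edgeR 4.0.16 under R 4.3.3 for TMM factors alone.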

Additional observations from a re-analysis of the deposited data

How the results depend on the processing

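No paired analysis was possible because each condition has 1 library, and for the same reason no library could be left out. Scaling by CPM adds 0.08 to every log2 fold change, TMM factors add 0.02 and factors from protein-coding genes add 0.03. Some medians changed sign: with CPM that of the 56 members was 0.0006 (-0.08 as reported) and that of all well-read genes 0.04 (-0.04), and that of all genes with at least 10 reads, -0.02 as reported, was 0.06 with CPM, 0.0002 with TMM and 0.01 with protein-coding factors. The count of members higher by more than 1.5-fold, 1 as reported, was 2 with CPM and 2 with protein-coding factors, 0 at 2-fold and 6 at a ratio of 5 to 4. The count lower, 3 as reported, was 1 at 2-fold and 8 at a ratio of 5 to 4. With CPM the median of the start site scanning genes was 0.11 in place of 0.03 and that of the subunit joining genes -0.081 in place of -0.16, and 0 in place of 1 of the further pathway genes was lower by more than 1.5-fold. Over protein-coding reads only, the members held 2.48% of siNC and 2.28% of siLINP1. The eIF3 median was -0.0022 and the cap-binding median -0.068 with CPM (-0.08 and -0.15 as reported), and the eIF5A median was 0.02 in place of 0.21 with at least 100 reads, where EIF5AL1 drops out. Leaving 10 rows out of the ribosomal protein list was chosen after seeing the data. EIF4H was at -1.07 and EIF5 at 0.69 with CPM. Depth limits EIF4E3, EEF1AKMT1, EIF4EBP3 and EIF5AL1, which had the fewest reads, and the spread between cultures is unknown for every gene.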
